A study of Caenorhabditis elegans with 6 samples.

Results

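Ribosomal proteins build the small and the large subunit of the cytosolic ribosome, the particle that reads mRNA and makes protein. Each ribosome holds 1 copy of nearly every one of them, folded onto ribosomal RNA. On the large subunit the acidic stalk proteins form an arm that brings in the factors driving elongation. Growing worms make ribosomes at a high rate, and transcripts of these proteins are among the most abundant in a larva. Levels of these transcripts were compared between Caenorhabditis elegans treated with chlorpyrifos (CPF) and control worms. CPF is an organophosphorus insecticide that blocks acetylcholinesterase, the enzyme that clears acetylcholine from synapses.

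The members were all genes with a symbol that begins with rps (small subunit), rpl (large subunit) or rplp (stalk). The gene table that turned sequence names into symbols gave the stalk genes as rplp and held 0 genes with the older rla symbols. This gave 82 of 18865 genes on the array, 30 of the small subunit, 48 of the large subunit and 4 of the stalk. They had 93 of 22490 probes. A gene was represented by its brightest probe, 73 members having 1 probe, 7 having 2 and 2 having 3.

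All worms were of the wild type strain N2. They grew from eggs for 72 h at 16 °C on agar with Escherichia coli OP50 and were collected whole in stage L3 to L4. The agar of treated worms held CPF dissolved in acetone and that of control worms held acetone alone. CPF was at 0.5 mg per ml by the labels but per litre by the text of the study, a unit that the files do not settle. Worms of 4 dishes were pooled into a sample. Each of 6 arrays carried a CPF sample and a control sample in 2 dyes. CPF was in the red dye Cy5 on 3 arrays (CPF Cy5 replicates 1 to 3) and in the green dye Cy3 on 3 arrays (CPF Cy3 replicates 1 to 3). Replicates are called biological in the series text, though no source used here says if control extracts were shared between arrays. The p-values thus cover the variation among these 6 arrays.

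Of the 82 ribosomal protein genes, 0 were significantly higher and 0 significantly lower in CPF treated worms at an adjusted p of 0.05 (limma, Benjamini-Hochberg over all genes). Over all genes 61 were called higher, which is 0.323%, and 164 lower, which is 0.869%. The smallest adjusted p of a member was 0.359, that of rpl-42, whose probe was near background. Without adjustment, 0 members were higher at p below 0.05 and 3 were lower, namely rps-25, rpl-42 and rps-10. Over all genes 3.89% were higher and 6.45% lower by that rule. Changes are given as the log2 of CPF over control with the standard error of the limma fit over 6 arrays. The median change of the members was -0.04 on this log2 scale, against 0.01 over all genes. The first and the third quartile of the members lay at -0.13 and 0.05.

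The 95% interval of the change (not adjusted for the number of genes) lay within a 1.5-fold change in either direction for 78 of the 82 members and within a 2-fold change for 81. The 4 members with an interval beyond 1.5-fold were rps-25, rpl-37.1, rps-29 and rpl-36, all on the lower side. These intervals do not bound the change in transcript for most members, since 72 had a saturated spot, whose intensity is a lower limit, and the probes of rpl-42 and rpl-41.2 were near background. Of the 8 members that were saturated on no array and above background everywhere, 8 had an interval within 1.5-fold. The median over the members of the distance from the change to either end of its interval was 0.21 on the log2 scale. The plot of fitted changes shows all members in order, from rps-25 at -0.55 to rpl-23A.2 at 0.15.

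**Figure D1:**
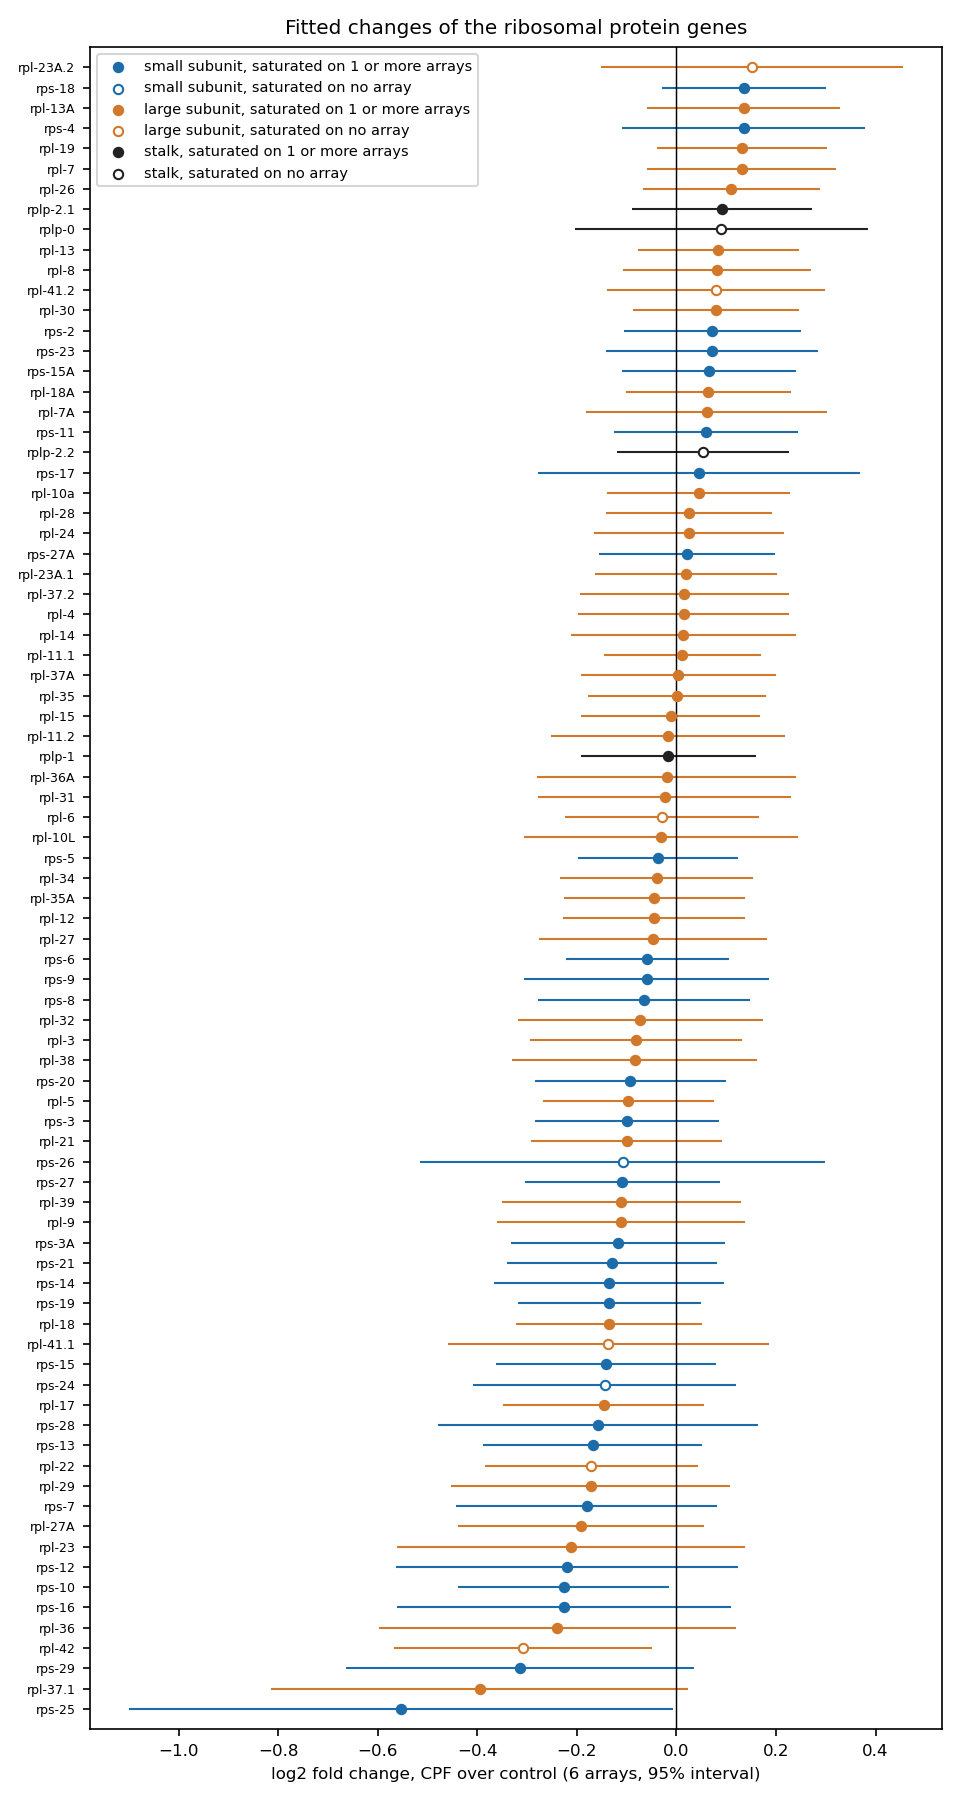
Fitted log2 fold change (CPF over control, horizontal axis) of each of the 82 ribosomal protein genes (vertical axis, in order), with its 95% interval from limma over 6 arrays. Colours give the subunit or stalk, and open points mark the 10 members whose spot was saturated on no array. The intervals of 3 members, rps-25, rpl-42 and rps-10, lay below 0 without adjustment.

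The signals of the members were near the ceiling of the scanner. Brightness is given here as log2 intensity averaged over both channels, after background correction and Aquantile scaling between arrays. That step gives every array the same distribution of brightness, so a dim value is dim relative to the other spots of its array. The median brightness of the members was 15.3 on CPF Cy5 replicates 1, 2 and 3 and on CPF Cy3 replicate 1, and 15.2 on CPF Cy3 replicates 2 and 3. The median of all genes was between 7.14 and 7.21, values that Aquantile makes alike. Brightness depends on the probe as well as on the transcript, so these values place the spots among those of their array and are not read as levels.

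In mean brightness over the arrays, 75 members were above 14 and 4 were below 11. The low ones were rps-24, rpl-22, rpl-41.2 and rpl-42, chosen here after their values were seen. On rps-24, which codes for a small subunit protein, brightness was between 8.99 and 10.5, and on rpl-22, which codes for a large subunit protein, between 9.72 and 10.7. The probes of rpl-42 and rpl-41.2 were close to background. The control was above background on 1 of 6 arrays for either gene. CPF was above it on 0 arrays for rpl-42 and on 2 for rpl-41.2. Each of the other 80 members was above background in both channels of every array.

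**Figure D2:**
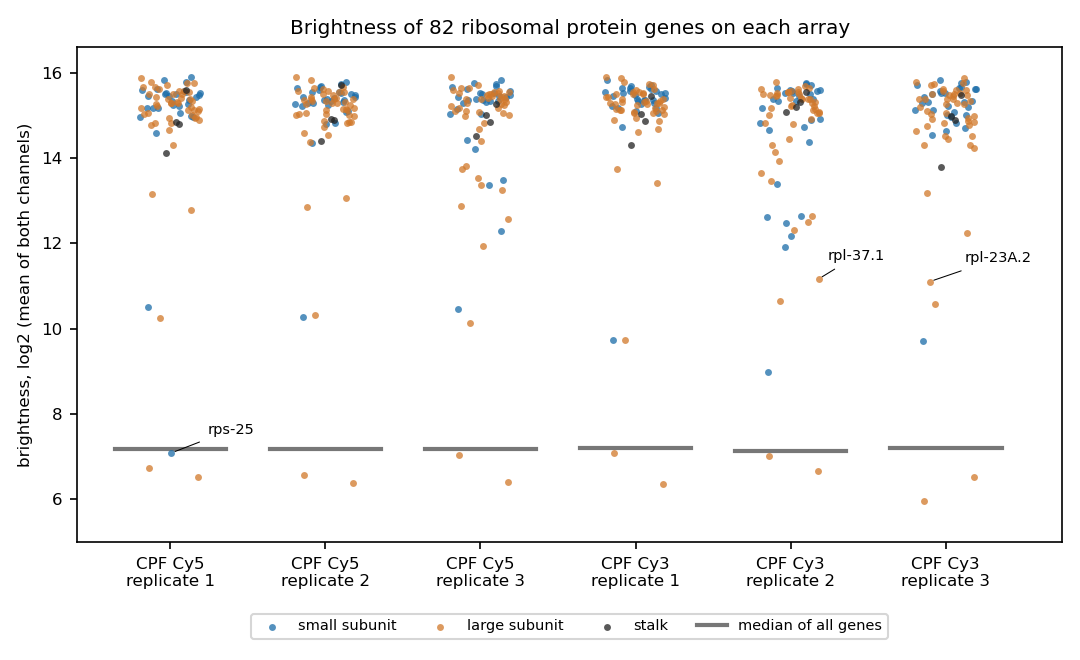
Brightness (log2, mean of both channels, vertical axis) of the 82 ribosomal protein genes on each of the 6 arrays, with a grey bar for the median of all genes. Most members lay above 14, and members such as rps-25 on CPF Cy5 replicate 1 fell far below their level on the other arrays.

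Saturation touched most of these values. A spot with 25% or more of its pixels at the ceiling in a channel was taken as saturated, and its intensity is then a lower limit. Of the 492 spots of members, 289 were saturated. On CPF Cy5 replicates 1, 2 and 3 the saturated members numbered 64, 55 and 57, and on CPF Cy3 replicates 1, 2 and 3 they numbered 37, 11 and 65. The saturated channel differed between arrays. On CPF Cy5 replicates 2 and 3 CPF was saturated for 55 and 57 members and the control for 3 and 0. On CPF Cy3 replicates 1 and 2 CPF was saturated for 0 members and the control for 37 and 11. Both conditions reached the ceiling elsewhere, with 64 members in CPF and 39 in control on CPF Cy5 replicate 1, and with 63 and 46 in turn on CPF Cy3 replicate 3. Spots of 10 members were saturated on all 6 arrays and those of 10 others on no array.

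Ratios of saturated and unsaturated members differed within arrays. On CPF Cy5 replicates 1, 2 and 3 the median log2 ratio was -0.15, -0.09 and -0.21 over the saturated members, and -0.10, 0.07 and -0.05 over the others. On CPF Cy3 replicate 1, where the control was the saturated sample, it was 0.33 over 37 saturated members and -0.003 over 45 others. On CPF Cy3 replicate 2 these medians were -0.05 and 0.04, and on CPF Cy3 replicate 3 they were -0.14 and 0.26. When saturated spots were left out, 32 members could still be tested and 0 were called. Their median change was 0.07, and that of the same 32 members with all spots was 0.05, with 23 of them above 0 in either fit. For the other 50 members no estimate free of saturated spots could be made.

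**Figure D3:**
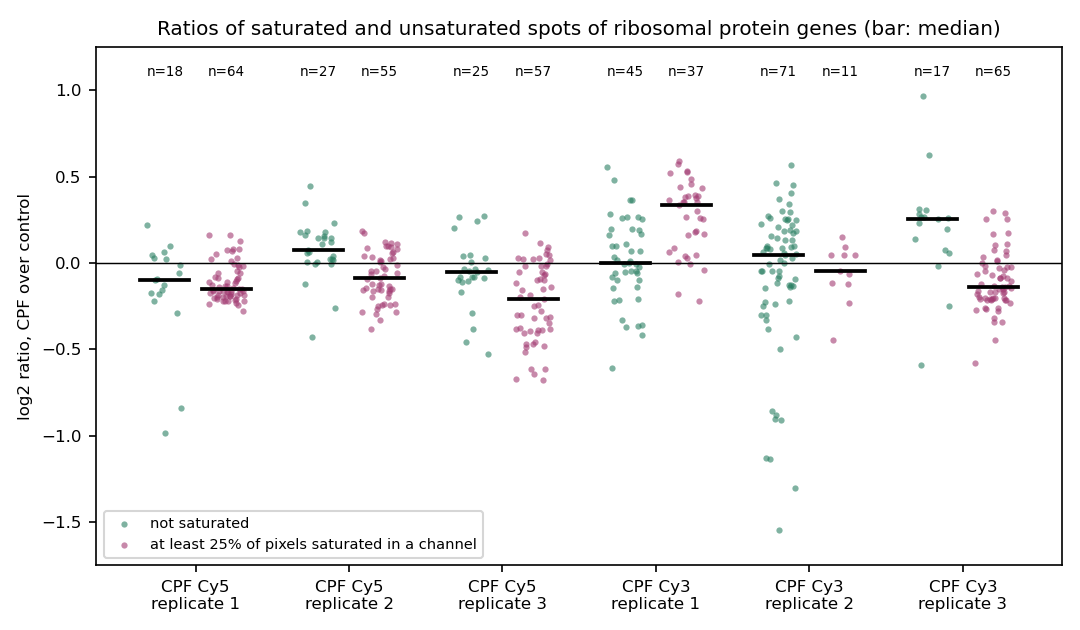
Log2 ratio of CPF over control (vertical axis) of members whose spot was saturated in a channel and of those whose spot was not, on each array, with the number of members above and a bar for the median. The saturated members lay lower than the others on 5 arrays and higher on CPF Cy3 replicate 1, at a median of 0.33 against -0.003.

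The median of the members differed in size and sign between arrays. The median log2 ratio was -0.14, -0.001 and -0.11 on CPF Cy5 replicates 1, 2 and 3, with 17, 41 and 19 of 82 members above 0. The CPF Cy3 arrays gave 0.13, 0.04 and -0.09, with 55, 44 and 29 above 0. The median of all genes was between -0.02 and 0.02 on every array. The highest and lowest medians of the members thus came from CPF Cy3 replicate 1 and CPF Cy5 replicate 1, and the ranges of the members overlapped on all arrays.

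**Figure D4:**
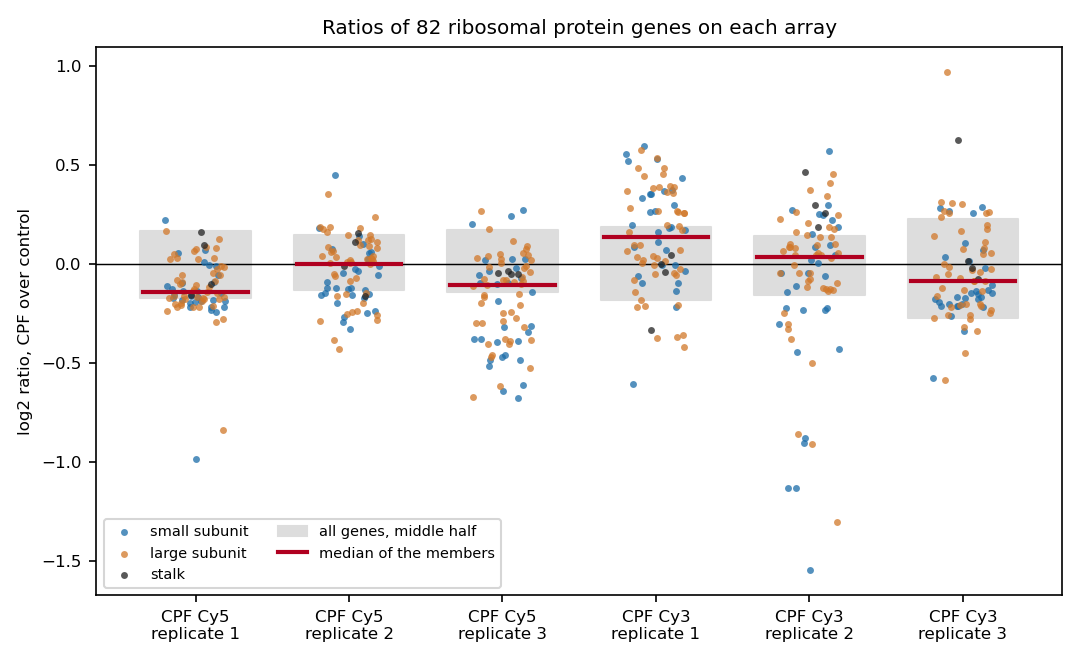
Log2 ratio of CPF over control (vertical axis) of the 82 ribosomal protein genes on each of the 6 arrays, with red bars for their median and grey boxes from the first to the third quartile of all genes. Medians ran from -0.14 on CPF Cy5 replicate 1 to 0.13 on CPF Cy3 replicate 1, and the lowest single values were on CPF Cy3 replicate 2.

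CPF Cy3 replicate 1 stood apart among the members. Of the 82 members, 41 had their highest ratio on that array. There were 26 members with a ratio above 0 on a single array, and for 21 of them it was CPF Cy3 replicate 1. The same counts over all genes are not given here. Over all genes the SD of the log2 ratios was 0.40 on CPF Cy3 replicate 1 and ran from 0.32 to 0.43 over the 6 arrays. Across the 82 members, the ratios on CPF Cy3 replicate 1 correlated with those on the other 5 at r between -0.57 and -0.10, while all other pairs of arrays had r between 0.24 and 0.56. Over all genes this array correlated with the CPF Cy5 arrays at r between 0.32 and 0.44, and with CPF Cy3 replicates 2 and 3 at r = -0.09 and -0.06. CPF Cy3 replicate 2 correlated with the CPF Cy5 arrays over all genes at r between -0.02 and -0.01. These correlations are descriptions over genes that share their arrays, dyes and print blocks. Without CPF Cy3 replicate 1 the median change of the members was -0.08, 16 of them were lower at an unadjusted p below 0.05, against 9.19% of all genes in the same fit, and 0 were called.

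The sign of the shift on single arrays also depended on the loess step, which sets the mean ratio at each brightness to 0. With arrays centred on their median only, the members' median was 0.08, 0.34 and 0.52 on CPF Cy5 replicates 1 to 3 and -0.27, -0.50 and -0.31 on CPF Cy3 replicates 1 to 3. There the members' red channel was the higher one on all 6 arrays, relative to all probes. The mean over the dye swap cancels this, and the median change was -0.04 with either scaling. With the members given no weight in the loess the array medians ran from -0.17 to 0.20 and the median change was again -0.04. The dye effect of the fit was significant for 0 members, with 0.0424% of all genes called, and with median centring alone for 16 members, with 9.81% of all genes called in that fit.

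Signs agreed on all 6 arrays for few members. The ratio was above 0 on all arrays for rps-18 alone and below 0 on all for rpl-42 alone, against 2.86% of all genes above and 4.28% below. The probe of rpl-42 was above background on 0 arrays in CPF and on 1 in control, so its signs do not measure the transcript. The transcript of rps-18 codes for a protein of the head of the small subunit. Its log2 ratios were 0.07, 0.14 and 0.03 on CPF Cy5 replicates 1 to 3 and 0.07, 0.25 and 0.26 on CPF Cy3 replicates 1 to 3. All lay close together, with the second smallest spread of any member, a range of 0.23. The change was 0.14 ± 0.07 (SE, n = 6 arrays, limma adjusted p = 0.592).

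Of the small subunit, 22 of 30 genes had a change below 0 and 8 above, against 48.2% of all genes below 0, with a median of -0.11. The median was 0.04 within the first header date and -0.22 within the second, dates that each held a single array of a dye orientation. Without saturated spots 9 of these genes could be tested, with a median of 0.09, and the same 9 had 0.07 with all spots. None passed the test in either direction (limma, 0 of 30), and 2 were lower at an unadjusted p below 0.05. Those were rps-25 and rps-10. Of the 6 lowest members, 3 were of the small subunit, namely rps-25, rps-29 and rps-16.

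The gene rps-25 (K02B2.5) codes for a small subunit protein that in yeast and human cells is needed for initiation at internal entry sites. It had the lowest change of all members. Its log2 ratio was -0.98, -0.33 and -0.64 on CPF Cy5 replicates 1 to 3, and 0.53, -1.55 and -0.34 on CPF Cy3 replicates 1 to 3. It was below 0 on 5 arrays and above on CPF Cy3 replicate 1. Its brightness was 7.08 on CPF Cy5 replicate 1 and reached 12.2 on CPF Cy3 replicate 2, the arrays with its lowest ratios, and between 14.6 and 15.1 on the others. The change was -0.55 ± 0.24 (SE, n = 6 arrays, limma adjusted p = 0.477), with the largest spread over arrays, a range of 2.07. It was -0.20 when spots more than 1 log2 unit dimmer than their probe's median were left out, -0.28 without CPF Cy3 replicate 2, and -0.80 without CPF Cy3 replicate 1. The rank product, the test named in the study's methods, called rps-25 lower at an adjusted p of 0.0254 and no other member in either direction. It called 0.795% of all genes higher and 2.02% lower.

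The protein of rps-29 (B0412.4) binds zinc and sits in the head of the small subunit near the mRNA. Its log2 ratios were -0.16, -0.09 and -0.38 on CPF Cy5 replicates 1 to 3 and 0.08, -1.13 and -0.21 on CPF Cy3 replicates 1 to 3. CPF Cy3 replicate 2 was again the lowest. The change was -0.31 ± 0.15 (limma adjusted p = 0.552), and -0.14 without that array. The gene rps-16 (T01C3.6), whose protein reaches with its tail to the tRNA in the ribosome, had -0.16, -0.27 and -0.19 on the CPF Cy5 arrays and 0.35, -0.88 and -0.21 on the CPF Cy3 arrays. The change of rps-16 was -0.23 ± 0.14 (limma adjusted p = 0.691), or -0.07 if CPF Cy3 replicate 2 is left out. For rps-26 (F39B2.6), whose protein lines the channel where mRNA leaves, the ratios were -0.10, 0.45 and -0.03 on the CPF Cy5 arrays and -0.10, -1.13 and 0.27 on the CPF Cy3 arrays. It had the second largest spread of all members, a range of 1.58. Its change of -0.11 ± 0.18 became 0.09 without CPF Cy3 replicate 2.

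The highest member of the small subunit beside rps-18 was rps-4 (Y43B11AR.4). Its ratios were -0.01, 0.06 and 0.27 on the CPF Cy5 arrays and -0.14, 0.57 and 0.07 on the CPF Cy3 arrays. The change was 0.13 ± 0.10 (limma adjusted p = 0.764), and the arrays lay on either side of 0. Without CPF Cy3 replicate 2 the change of rps-4 was 0.03, and without CPF Cy3 replicate 1 it was 0.21. The gene rps-27A (H06I04.4a), whose product is ubiquitin fused to a small subunit protein, had ratios between -0.10 and 0.22 and a change of 0.02 ± 0.08. The third member with an unadjusted p below 0.05, rps-10, had a change of -0.23 ± 0.09 (limma adjusted p = 0.440). Its ratio was below 0 on 5 arrays and 0.09 on CPF Cy3 replicate 2.

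Of the large subunit, 27 of 48 genes had a change below 0 and 21 above, with a median of -0.02. Without saturated spots 20 of them could be tested, with a median of 0.04, and the same 20 had 0.02 with all spots. None passed the test (limma, 0 of 48), and 1 was lower at an unadjusted p below 0.05. That gene, rpl-42 (C09H10.1), was the dim member described above. Its log2 ratios were -0.84, -0.26 and -0.04 on CPF Cy5 replicates 1 to 3 and -0.36, -0.10 and -0.25 on CPF Cy3 replicates 1 to 3. The fitted value was -0.31 ± 0.11 (limma adjusted p = 0.359). Since CPF was not above background on any array and the control on 1, no fold change is given for it.

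The gene rpl-36 (F37C12.4) had ratios of -0.16, -0.16 and -0.47 on the CPF Cy5 arrays and 0.44, -0.86 and -0.22 on the CPF Cy3 arrays. Its change was -0.24 ± 0.15 (limma adjusted p = 0.696), or -0.08 if CPF Cy3 replicate 2 is left out. The middle of the members was rpl-35A (F10E7.7), with ratios of -0.18, 0.12 and -0.24 on the CPF Cy5 arrays and 0.01, 0.06 and -0.03 on the CPF Cy3 arrays and a change of -0.04 ± 0.08. At the upper end were rpl-13A (M01F1.2), whose product is part of a translational control complex in human cells, rpl-19 (C09D4.5), whose product spans a bridge between the subunits, and rpl-7 (F53G12.10). Their changes were 0.14 ± 0.08, 0.13 ± 0.07 and 0.13 ± 0.08 (limma adjusted p = 0.680, 0.628 and 0.681). The ratio of rpl-7 was above 0 on all arrays but CPF Cy3 replicate 3 at -0.09, that of rpl-13A on all but CPF Cy3 replicate 1 at -0.03, and that of rpl-19 on all but CPF Cy5 replicate 1 at -0.01.

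Some large subunit and stalk proteins are coded by a pair of genes. Whether their probes tell the copies apart was not tested, as probe sequences were not used here. The product of rpl-11.1 and rpl-11.2 joins the large subunit together with a small ribosomal RNA. The log2 ratios of rpl-11.1 (T22F3.4) lay between -0.08 and 0.09, the smallest spread of all members at a range of 0.17. Those of rpl-11.2 (F07D10.1) lay between -0.30 and 0.31. The changes were 0.01 ± 0.07 and -0.02 ± 0.10.

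The product of rpl-23A.1 and rpl-23A.2 lies at the exit of the tunnel through which the growing protein leaves. For rpl-23A.1 (F55D10.2) the ratios lay between -0.21 and 0.13, with a change of 0.02 ± 0.08. For rpl-23A.2 (F52B5.6) the ratios were -0.10, 0.06 and -0.11 on CPF Cy5 replicates 1 to 3 and 0.10, -0.01 and 0.97 on CPF Cy3 replicates 1 to 3. The last stood far above the others, and its brightness of 11.1 there was the lowest of the 6 arrays, the others lying between 14.1 and 15.1. The change of rpl-23A.2 was the highest of all members at 0.15 ± 0.13 (limma adjusted p = 0.798) and was -0.002 without that array.

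Among the pairs, the fitted changes of rpl-37.1 and rpl-37.2 lay farthest apart. For rpl-37.1 (W01D2.1) the ratios were -0.28, -0.28 and -0.53 on CPF Cy5 replicates 1 to 3 and 0.26, -1.30 and -0.23 on CPF Cy3 replicates 1 to 3. Its brightness was 12.6 on CPF Cy5 replicate 3 and reached 11.2 on CPF Cy3 replicate 2, the arrays with its lowest ratios, and above 14 on the others. The change of rpl-37.1 was -0.40 ± 0.18 (limma adjusted p = 0.525), -0.18 without CPF Cy3 replicate 2 and -0.14 when dim spots were left out. For rpl-37.2 (C54C6.1) the ratios lay between -0.25 and 0.28, with a change of 0.02 ± 0.09. The difference between the genes of a pair was not tested.

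The pair rpl-41.1 and rpl-41.2 codes for the smallest ribosomal protein. For rpl-41.1 (F54D7.6) the ratios were -0.22, 0.06 and -0.17 on the CPF Cy5 arrays and 0.48, -0.38 and -0.59 on the CPF Cy3 arrays, with a change of -0.14 ± 0.14, or -0.03 without CPF Cy3 replicate 3 and -0.30 without CPF Cy3 replicate 1. The dim rpl-41.2 (F54D7.7) had ratios between -0.33 and 0.35 and a fitted value of 0.08 ± 0.09.

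No stalk gene passed the test (limma, 0 of 4). The fitted changes were -0.02 ± 0.08 for rplp-1 (Y37E3.7), 0.09 ± 0.08 for rplp-2.1 (C37A2.7) and 0.05 ± 0.07 for rplp-2.2 (Y62E10A.1), which code for the proteins at the tip of the arm. For rplp-0 (F25H2.10), whose product anchors the arm to the ribosome, the ratios were -0.16, -0.01 and -0.05 on CPF Cy5 replicates 1 to 3 and -0.33, 0.46 and 0.63 on CPF Cy3 replicates 1 to 3. The highest values came from CPF Cy3 replicates 2 and 3, and the change was 0.09 ± 0.13 (limma adjusted p = 0.893). It was -0.003 without CPF Cy3 replicate 3, 0.04 without CPF Cy3 replicate 2 and 0.24 without CPF Cy3 replicate 1. On CPF Cy3 replicate 2 all 4 stalk genes were above 0, with a median of 0.28. Medians of the stalk genes on the other arrays lay between -0.05 and 0.05.

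Position on the array went with the dim spots. Probes were printed in 12 rows and 4 columns of blocks. Block brightness was measured on probes with a median brightness of at least 10, as the deviation of each probe from its own median over the arrays. In rows 1 to 6, 12 blocks of CPF Cy3 replicate 2 were more than 1 log2 unit dim, the lowest with a deviation of -4.72. This held for 3 blocks of CPF Cy5 replicate 3, 2 of CPF Cy3 replicate 3 and 1 of CPF Cy5 replicate 1, and for 0 blocks of the other 2 arrays. In rows 7 to 12 it held for 0 blocks on any array. There were 22 members with a spot more than 1 log2 unit dimmer than their median, 21 of them in rows 1 to 6, with 25 such spots in all.

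The 8 members with a ratio below a 1.5-fold decrease on CPF Cy3 replicate 2 were all printed in rows 2 to 6, 5 of them in a dim block and 3 (rpl-37.1, rpl-23 and rpl-36) in blocks that were not dim. Their own spots on that array were more than 1 log2 unit dimmer than their median for 7 of the 8, all but rps-29. The 8 were rps-25, rpl-37.1, rps-26, rps-29, rpl-23, rps-12, rps-16 and rpl-36, chosen here by their ratio. On that array 13 members had such a dim spot, and not all of these had a low ratio. Dim spots of rps-18, rpl-26 and rpl-4 had ratios of 0.25, 0.22 and 0.10. Those of rpl-3, rps-24 and rps-20 had -0.13, -0.15 and -0.22. In rows 1 to 6 the median range of brightness over the arrays was 1.20 for 47 members, and in rows 7 to 12 it was 0.32 for 35 members. The median range of the log2 ratio was 0.60 in either set of rows. With probes of rows 7 to 12 alone, 0 of 35 members were called and their median was -0.08. With dim spots left out, 0 of 82 were called and the median stayed at -0.04.

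**Figure D5:**
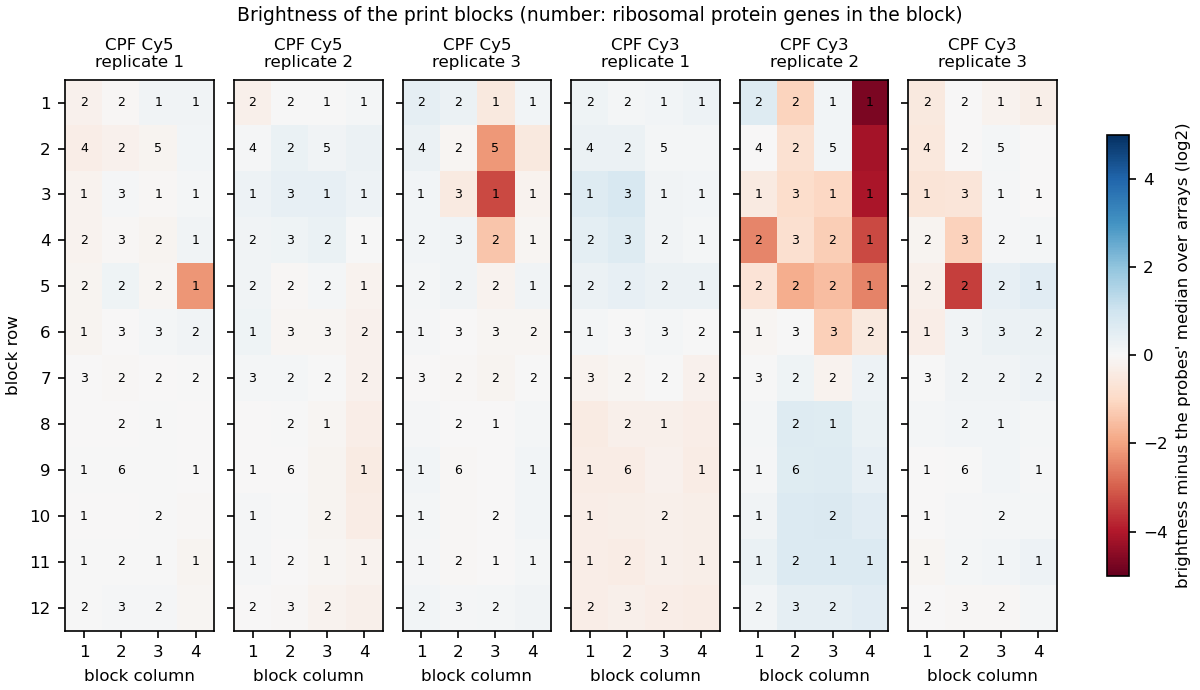
Median brightness of each print block (12 rows, 4 columns) on each of the 6 arrays, as the log2 deviation of its probes from their own median over the arrays, with red for dimmer. The number in a block gives how many of the 82 ribosomal protein genes were printed there, and all blocks more than 1 log2 unit dim lay in rows 1 to 6.

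Arrays also differed by the date in the file headers, which is not known to be a date of culture or extraction. CPF Cy5 replicates 1 and 2 and CPF Cy3 replicate 1 bore an earlier date than the other 3. Within the first date the median change of the members was 0.04 and within the second -0.12. These fits kept the dye term. The first thus rests on CPF Cy3 replicate 1 as its only CPF Cy3 array, and the second on CPF Cy5 replicate 3 as its only CPF Cy5 array. The difference between the dates was significant for 0 members and passed an unadjusted p of 0.05 for 9, against 8.53% of all genes. With the date as a block the median was -0.04 and 0 members were called.

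Different probes of the same gene were compared for the 9 members with several probes. Their 20 probes had fitted changes from -0.19 for the used probe of rpl-27A to 0.13 for another probe of rpl-7A. An unused probe each of rpl-22, rpl-27A and rps-27A was above background in both channels on 0 arrays. The changes of those probes, -0.03, 0.06 and 0.06, do not measure the transcript. Except for rpl-22, the used probe was saturated on more arrays than the other probes of its gene. Probes of a gene could fall on either side of 0. For rpl-17, whose product lies by the exit tunnel, the used probe gave -0.15 ± 0.09 and the others 0.08 ± 0.09 and 0.03 ± 0.09. The used probe of rpl-17 was saturated on 5 arrays and the others on 1 and 4. With the mean of the probes in place of the brightest, 0 members were called and the median was -0.04.

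Other parts of the translation machinery gave no calls either. Ribosomal proteins with other symbols were rack-1, a scaffold on the small subunit, rpsa-1, a small subunit protein, and ubq-2, ubiquitin fused to a large subunit protein. Their changes were -0.28 ± 0.12, -0.12 ± 0.11 and -0.08 ± 0.08 (limma adjusted p = 0.504, 0.797 and 0.839). The ratio of rack-1 was below 0 on all 6 arrays, with -0.97 on CPF Cy3 replicate 2 and between -0.23 and -0.06 on the others. Among 65 mitochondrial ribosomal proteins, 34 initiation factors, 8 elongation and release factors and 33 aminoacyl-tRNA synthetases 0 were called, with medians of 0.01, 0.01, -0.07 and 0.08. In this order 46, 19, 7 and 20 of them were above background in CPF on all arrays, and 52, 21, 7 and 22 in control. A change above 0 was seen for 33, 21, 3 and 29, against 51.8% of all genes. Among 33 genes of ribosome biogenesis, 7 of RNA polymerase I and the nucleolus, 10 of the TOR pathway and 5 factors that act on nascent chains 0 were called as well, with medians of 0.05, 0.05, 0.03 and 0.08. Of these lists in turn 26, 5, 5 and 4 genes were above background in CPF on all arrays, and 30, 7, 6 and 4 in control. Those with a change above 0 numbered 22, 4, 6 and 3.

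Markers of tissues were read on the same arrays. All 6 markers each of body wall muscle, intestine and hypodermis were above background in both conditions on all arrays, and 0 were called. Their medians were 0.07, -0.09 and 0.07. Array medians lay between -0.51 and 0.85 for muscle, -0.47 and 0.03 for intestine, and -0.09 and 0.20 for hypodermis. For neurons 0 of 5 were called at a median of 0.09, with array medians between -0.20 and 0.35. For the germline 0 of 6 were called at a median of -0.31, with array medians between -0.90 and 0.23. For sperm, which N2 hermaphrodites make at the end of larval life, 3 of 6 markers were significantly lower (msp-38, msp-45 and nspd-1), with array medians between -2.62 and -0.51. Of these 6, 4 were above background in CPF on all arrays and 5 in control. For oocytes and yolk 2 of 6 were lower (vit-2 and vit-6), with array medians between -2.09 and -0.29. Only 2 of 6 were above background on all arrays in CPF, and likewise 2 of 6 in control. The medians of this list thus include markers not detected on every array in either condition. The sperm markers and the oocyte and yolk markers had their lowest medians on CPF Cy5 replicate 1 and CPF Cy3 replicate 1. The same arrays held the lowest and the highest median of the ribosomal protein genes. The part of tissue makeup in the values of the members was not tested. In whole worms fewer cells of a type and less RNA per cell cannot be told apart.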

How the data were processed

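RNA of whole worms was hybridised to 60-mer arrays and read with a ScanArray Express scanner, per the file headers. For each spot and channel the deposited files hold the intensity (mean and median) with that of the background around it, on a linear scale before any normalization. They were deposited with the percent of saturated pixels and a score (a code of the scanner software that no source used here explains). The authors also deposited a table of log2 ratios. The submitters' processing notes name limma, and the study's methods name loess, Aquantile and the rank product. Set against the scanner values, its columns equalled CPF over control after loess of the mean foreground with no background correction, to within 5e-06. The columns of the CPF Cy5 arrays had medians of -0.00107, -0.000791 and -0.000933, and those of the CPF Cy3 arrays had -0.00213, 0.0021 and 0.00608. Scale, direction and centring were thereby known. Columns that the scanner software had normalized were left out.

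Each array held 23232 spots, 742 of them control spots. Names came from the gene table of the reference assembly WBcel235 (21382 probes by locus tag, 31 by gene number, 1077 keeping the name in the file). Background was corrected with normexp (offset 50), ratios by a global loess without control spots, then Aquantile. limma 3.58.1 in R 4.3.3 fitted treatment and a dye intercept to all probes, on log2 ratios turned to CPF over control, with Benjamini-Hochberg adjustment over the 18865 genes. Tests were two-sided. Above background meant a mean foreground over the mean local background by 2 SD. Per channel 34.98% to 61.6% of probes passed this, and 24 to 147 probes per array were saturated. The number of arrays limits the precision. Intensities of saturated spots are lower limits, so saturation can also shift their ratios. The fit was also run on simulated data, with an outcome that is not given here. Tables used pandas 2.3.3 and plots matplotlib 3.10.9.

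Members, lists and tests were chosen with earlier results of these data known. By rule the text names called members, the 6 highest and 6 lowest others, genes that share a protein, stalk genes, the middle member, those with the same sign on all arrays and the 2 largest and 2 smallest spreads. Others named were chosen after their values were seen. Alternatives covered background correction, scaling, spot filters, probes of a gene, leaving out arrays, blocks and the rank product (with a gamma approximation). Leaving out dim spots and using rows 7 to 12 alone were added after seeing the data.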

Additional observations from a re-analysis of the deposited data

Results flagged for a closer look

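For the 24 named members and the lists, the highest or lowest of the 6 arrays was set against the gap to its neighbour (Dixon's test at the 95% level). Chance alone marks about 1 in 20 sets that were not chosen by their values. Many of the named members were chosen by the height or spread of these same ratios, rpl-23A.2 and rps-26 among them. That rate therefore does not hold for the members. Of 24 members, 2 had a ratio that stood apart. The log2 ratio of rpl-23A.2 was 0.968 on CPF Cy3 replicate 3 and between -0.108 and 0.0951 on the others. That of rps-26 was -1.134 on CPF Cy3 replicate 2 and between -0.0982 and 0.446 on the others.

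Brightness stood apart for 10 of 24 members. It was low on CPF Cy3 replicate 2 for rpl-36 (13.9), rps-16 (12.5), rps-18 (12.6), rps-26 (13.4) and rps-29 (14.7). It was low on CPF Cy5 replicate 3 for rpl-11.1 (12.9) and rps-4 (12.3), on CPF Cy3 replicate 3 for rpl-23A.2 (11.1) and on CPF Cy5 replicate 1 for rps-25 (7.08). It was high on CPF Cy3 replicate 2 for rplp-2.2 (15.3).

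Of 20 list medians, 2 stood apart. The median log2 ratio of the stalk genes was 0.277 on CPF Cy3 replicate 2 and at most 0.0508 on the others. That of the intestine markers was -0.467 on CPF Cy3 replicate 1 and at least -0.107 on the others.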

How the results depend on the processing

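Of 26 alternatives, 25 used limma, and in each of these 0 members were called, as with the main setting. The rank product called 1 member, rps-25, lower at its change of -0.55. The median change of the members lay between -0.12 and 0.07 over the limma alternatives. It was 0.0741 without saturated spots, where fewer members could be tested. Leaving out 1 array each gave medians from -0.08 to -0.01. The dye effect was called for 16 members with median centring without loess, where it was called for 9.81% of all genes. Of 595 values of named members under the alternatives, 15 changed sign with a move from the main value of at least its standard error and 19 with a smaller move, none of them called. The 15 were rpl-11.2 at 0.113 with normexp on the median foreground and 0.0971 without saturated spots, rpl-23A.2 at -0.0154 with print-tip loess and -0.0024 without CPF Cy3 replicate 3 or without dim spots, rpl-41.2 at -0.0396 with plain subtraction, and rps-26 at 0.0947 without CPF Cy3 replicate 2 or without dim spots. Leaving out 1 array each gave -0.0024 to 0.242 for rpl-23A.2 and -0.255 to 0.0947 for rps-26. Within the first date these were rpl-23A.1 at -0.0789, rpl-36 at 0.138, rpl-41.1 at 0.201, rplp-0 at -0.208, rps-16 at 0.0691 and rps-4 at -0.0585, and within the second rpl-37.2 at -0.0894. The cause was not tested. Arrays with the same replicate number in both dye groups had r = 0.158, 0.070 and 0.024 between deviations from the group means. Other combinations had r between -0.156 and 0.100. Deviations within a group of 3 arrays are tied to one another, so these values cannot decide if the numbers pair the arrays. With the replicate block 0 members were called and 71 genes were higher and 224 lower. Without background correction 13 genes were higher and 6 lower, and in the authors' table likewise, against 61 and 164 in the main setting. Over the limma alternatives between 3 and 231 genes were higher and between 0 and 630 lower. For 50 members saturation left no estimate from unsaturated spots.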
